A study of Mus musculus with 4 samples.

Results

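The 37 genes described here encode the enzymes and transporters of glycolysis (20 genes) and of the tricarboxylic acid (TCA) cycle with its entry step (17 genes). They were chosen by gene symbol, and all 37 were found among the 21926 genes of the count tables. The data were single-cell RNA-seq counts of unsorted thymocytes of 5-week-old C57BL/6 littermates, measured on the DNBelab C4 droplet system as unique molecular identifiers (UMIs), each standing for a captured 3′ tag of an mRNA. The WT library came from a mouse with *Eif4g2* flox/flox and no Cre, and the cKO library from a mouse with *Cd4*-*Cre* and *Eif4g2* flox/flox, so both genotypes carried the floxed alleles. The *Cd4*-*Cre* transgene deletes from the CD4+CD8+ stage onward and is not expected to have acted in CD4-CD8- cells. With 1 library for each genotype no difference had a replicate check, so no test was run, and a difference between libraries cannot be told apart from a difference between the 2 mice or their preparation. Values are therefore given with exact 95% intervals, which cover counting error only. The 2 further libraries of the series, oligo libraries of the same droplets, hold no gene counts.

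The library labelled WT went against its label, since both mice are labelled female but the Y chromosome genes *Kdm5d*, *Uty* and *Eif2s3y* together gave 2542 UMIs there and 1 UMI in the cKO library. *Ddx3y*, also on the Y chromosome, gave 1427 UMIs in the WT and 510 in the cKO library. The mice may thus differ in sex, which cannot be told apart from genotype in any ratio of cKO over WT. *Eif4g2*, the deleted gene, stood at 223 CPM in the WT library and 274 CPM in the cKO library (CPM, counts scaled to a library or class total of 1000000 UMIs), and a 3′ tag outside the deleted part does not check the deletion. The libraries held 6014 cells with 18355050 UMIs (WT) and 4335 cells with 18056277 UMIs (cKO), with medians of 1732.5 and 2140 UMIs per cell. The cell names are running numbers, and 1055 of them occur in both libraries, which tells nothing of shared cells. No doublet caller was run.

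Thymocytes begin as double-negative (DN) cells without CD4 or CD8, pass a phase of rapid division into the double-positive (DP) stage, rest there while their T cell receptor is tried out, and after positive selection mature into single-positive (SP) cells. Cells were clustered without the 37 genes and sorted into classes by markers of these stages. The classes held 96 WT and 128 cKO DN-like cells, 932 and 1213 cycling-like cells, 3212 and 1986 non-cycling DP-like cells, 645 and 468 early post-selection-like cells, and 785 and 286 mature SP-like cells. Median UMIs per cell were 4989.5 and 5542 in DN-like cells, 5347 and 6414 in cycling-like cells, 1404 and 1360.5 in non-cycling DP-like cells, 1723 and 1777.5 in early post-selection-like cells, and 3314 and 3332.5 in mature SP-like cells. Series of 5 values below follow this order of classes. Most cells of DP-like clusters 0 and 2 came from the WT and the cKO library, respectively, and likewise for cycling-like clusters 7 and 6, so that these clusters may stand for a library rather than a state. Levels are CPM, the UMIs of a gene summed over the cells of a class and scaled to the UMIs of that class. Ratios are on the log2 scale, and a gene was called higher or lower when its log2 ratio passed 0.5 in either direction, among genes with at least 50 UMIs over both sides (measured genes).

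Glycolysis splits glucose into pyruvate in the cytosol and yields some ATP and building blocks at speed. Lactate dehydrogenase then converts pyruvate to lactate and back, while the pyruvate dehydrogenase complex carries pyruvate carbon into the TCA cycle in the mitochondria, where it is oxidised to feed the respiratory chain. Dividing lymphocytes are known for a high glycolytic rate with lactate output, and resting lymphocytes for relying more on mitochondrial oxidation. Lactate dehydrogenase is a tetramer of A chains (*Ldha*) and B chains (*Ldhb*), of which the A form is associated with lactate production and the B form with lactate use.

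Promoter sequences are shown for genes that differed together or apart between the stages. *Hk2*, *Pgk1*, *Pgam1* and *Ldha* were higher in cycling-like than in non-cycling DP-like cells of both libraries, while *Ldhb* was lower there and *Slc16a1* was lower in the DN-like, early post-selection-like and mature SP-like classes of both. The 250 bases before the RefSeq start of each gene (mouse assembly GRCm38.p6) were searched on both strands for CACGTG, the E-box bound by MYC and related factors, for ACGTG, the core of the hypoxia response element (contained in CACGTG), and for CCAAT, the box bound by NF-Y. Each window of 30 bases is written 5′ to 3′ on the gene's strand, and capitals mark the motif named or its reverse complement, together with any further match in the window. The windows lie at chr7:46845744-46845773 (+ strand) for *Ldha* with CACGTG, 48 bases before the start, at chr6:142507993-142508022 (- strand) for *Ldhb* with CCAAT, 53 bases before it, at chr6:82774489-82774518 (- strand) for *Hk2* with ACGTG, 52 bases before it, at chrX:106186957-106186986 (+ strand) for *Pgk1* with ACGTG, 131 bases before it, at chr19:41911745-41911774 (+ strand) for *Pgam1* with ACGTG, 114 bases before it, and at chr3:104638452-104638481 (+ strand) for *Slc16a1* with CACGTG, 200 bases before it. None of them overlaps an annotated exon.
Ldha: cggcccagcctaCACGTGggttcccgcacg
Ldhb: cgtctcgggtttCCAATcacaatggagaaa
Hk2: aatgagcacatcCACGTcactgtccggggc
Pgk1: aaatggaagtagCACGTctcactagtctcg
Pgam1: cgctccttgcttACGTGcgctccgtgactg
Slc16a1: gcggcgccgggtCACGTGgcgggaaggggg

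CACGTG was found for 3 of the 19 glycolysis genes that matched a RefSeq promoter (*Slc16a1*, *Pfkm* and *Ldha*) and for 1 of 16 TCA genes (*Ogdh*), against 6.86% of 27025 genes with a promoter in the table. ACGTG was found for 9 of 19 glycolysis genes (*Slc2a1*, *Slc16a1*, *Hk2*, *Pfkm*, *Aldoa*, *Pgk1*, *Pgam1*, *Pkm* and *Ldha*) and 4 of 16 TCA genes (*Pdhb*, *Idh3g*, *Ogdh* and *Mdh1*), against 18.5% of genes. CCAAT was found for 8 of 19 glycolysis genes (*Hk2*, *Pfkp*, *Aldoa*, *Pgk1*, *Eno1*, *Eno3*, *Pkm* and *Ldhb*) and 9 of 16 TCA genes (*Pdhb*, *Dld*, *Cs*, *Idh3b*, *Idh2*, *Ogdh*, *Suclg2*, *Fh1* and *Mdh1*), against 37.5% of genes. *Hk2* and *Pgk1*, shown above with ACGTG, thus also held CCAAT, 66 and 58 bases before the start. CCAAT therefore does not separate *Hk2* and *Pgk1* from *Ldhb*. ACGTG was found for *Hk2*, *Pgk1*, *Pgam1* and *Ldha* and not for *Ldhb*, but these were not all the genes higher in cycling-like cells. *Tpi1* and *Gapdh*, which were also higher in cycling-like cells, held no ACGTG in this window, and *Slc16a1*, which was not higher there, held the E-box. *Slc2a3* and *Idh3a* had no entry. A match describes these letters and is not a binding site.

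*Ldhb* had its highest level in non-cycling DP-like cells of both libraries. In the WT library its levels were 179.7, 305, 1088, 755 and 213 CPM, and in the cKO library 195, 271, 929, 688 and 253 CPM. The non-cycling DP-like level was 1088 (1059 to 1117) CPM in WT and 929 (897 to 963) CPM in cKO, and no interval of another class reached it. *Ldhb* lay on chromosome 6 (142490249-142507957, GRCm38, - strand). Against non-cycling DP-like cells, the log2 ratio of *Ldhb* was -2.597 (-2.88 to -2.33) in WT DN-like cells and -2.26 (-2.48 to -2.03) in cKO DN-like cells. In cycling-like cells it was -1.83 (-1.91 to -1.76) in WT and -1.78 (-1.85 to -1.70) in cKO. In mature SP-like cells it was -2.35 (-2.47 to -2.23) and -1.88 (-2.06 to -1.70). Early post-selection-like cells came nearest to the DP-like level, with -0.53 (-0.62 to -0.43) in WT and -0.43 (-0.55 to -0.32) in cKO, the latter within the limit of 0.5. This class pooled unlike clusters, with WT and cKO levels of 912 and 923 CPM in cluster 4 and 269 and 268 CPM in cluster 10.

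*Ldha* had its lowest level in non-cycling DP-like cells of both libraries. WT levels were 238, 404, 185, 381 and 351 CPM and cKO levels 289, 504, 254, 435 and 353 CPM. The DP-like level was 185 (173 to 197) CPM in WT and 254 (237 to 272) CPM in cKO, and DN-like cells came next, at 238 (201 to 279.8) and 289 (255 to 327) CPM, where the cKO intervals overlapped. *Ldha* (chromosome 7, 46841475-46855627, GRCm38, + strand) was higher than in non-cycling DP-like cells by 1.13 (1.02 to 1.24) in WT and 0.99 (0.88 to 1.09) in cKO cycling-like cells, and by 1.04 (0.89 to 1.20) and 0.78 (0.61 to 0.94) in early post-selection-like cells.

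**Figure D1:**
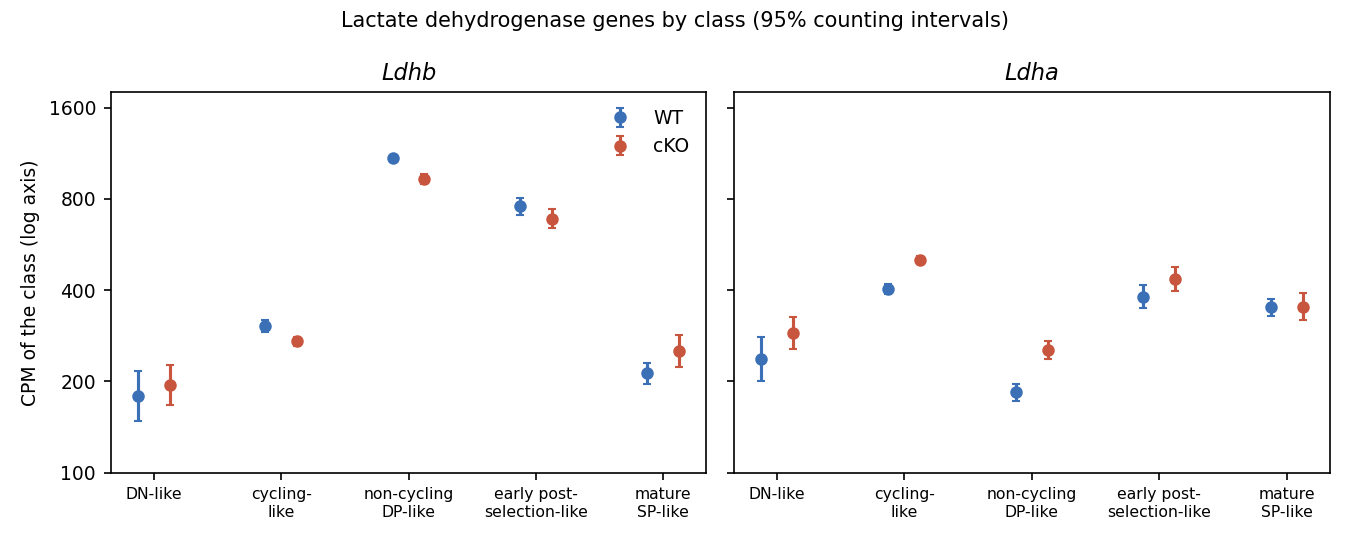
Levels of *Ldhb* (left) and *Ldha* (right) in CPM of the class (log axis) in the 5 classes, with WT in blue and cKO in red and bars for 95% counting intervals. Non-cycling DP-like cells have the highest *Ldhb* levels, 1088 and 929 CPM, and the lowest *Ldha* levels, 185 and 254 CPM.

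As a share of the *Ldha* and *Ldhb* tags together, *Ldhb* made up 43.0, 43.0, 85.5, 66.5 and 37.8% in the WT library and 40.2, 35.0, 78.5, 61.2 and 41.7% in the cKO library. The share was highest in non-cycling DP-like cells, at 85.5% (84.6 to 86.3) in WT and 78.5% (77.2 to 79.8) in cKO. The intermediate share of early post-selection-like cells was an average over unlike clusters. Cluster 4 had 71.4% in WT and 67.8% in cKO, and cluster 10 had 38.7 and 38.5%. Between the libraries the intervals lay apart in cycling-like, DP-like and early cells, with WT higher, and overlapped in DN-like and mature SP-like cells. In early cells they lay apart only narrowly, at 64.05 to 68.83% in WT and 58.45 to 63.98% in cKO. In the small class of NKT or gamma delta T-like cells (55 and 15 cells) the share was 11.9% in WT and 36.4% in cKO.

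Within classes, *Ldhb* shares were lowest in the cells with the most UMIs, with little difference between depths in non-cycling DP-like cells. Cycling-like WT cells with under 2000, 2000 to 5000, 5000 to 10000 and over 10000 UMIs had shares of 74.5, 65.2, 54.5 and 26.7%. The same bands of cKO cycling-like cells had 50, 58.0, 48.9 and 23.2%. Non-cycling DP-like cells with under 2000 and 2000 to 5000 UMIs had 85.7 and 85.0% in WT and 79.1 and 77.3% in cKO. Mature SP-like cells of over 10000 UMIs had 7.5% in WT and 21.5% in cKO, against 41.3 and 47.7% at 2000 to 5000 UMIs. At 2000 to 5000 UMIs DP-like cells had the highest share in both libraries. UMIs per cell and state cannot be told apart here, and cells of over 10000 UMIs (207 WT and 348 cKO among cycling-like cells) may hold 2 cells, which was not tested.

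**Figure D2:**
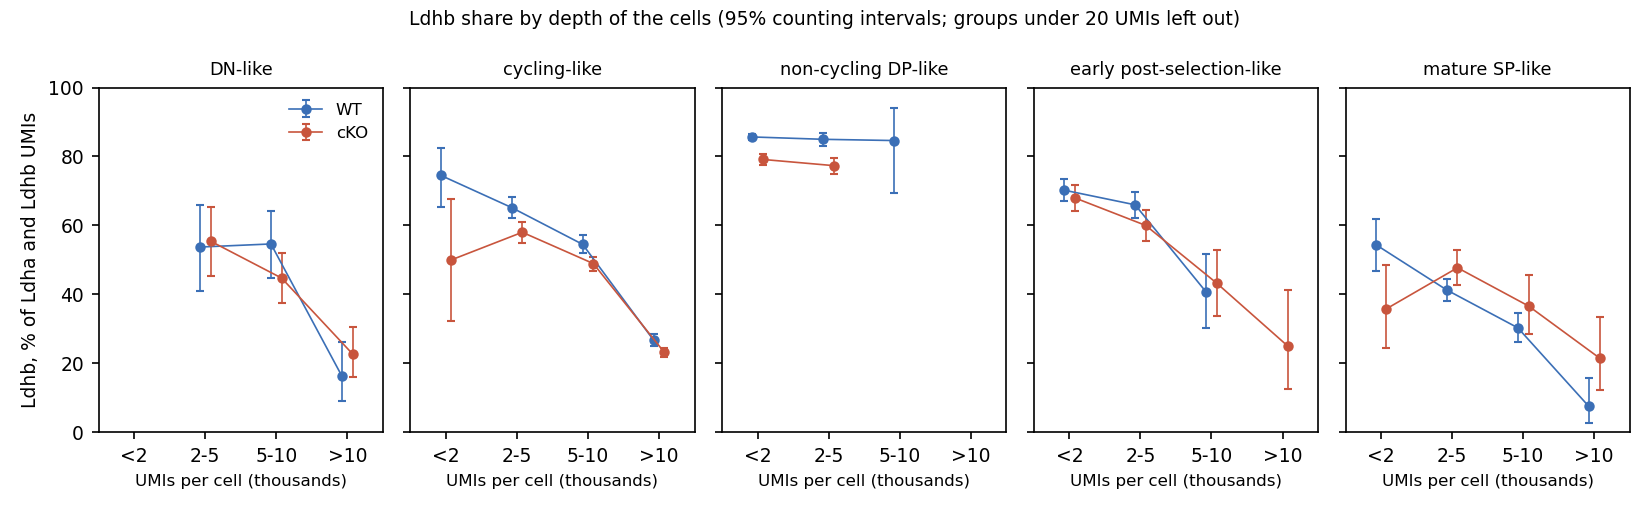
Share of *Ldhb* in the *Ldha* and *Ldhb* UMIs (percent) by UMIs per cell in units of 1000, for each class, with WT in blue, cKO in red and bars for 95% counting intervals. In non-cycling DP-like cells the points stay between 77.3 and 85.7%, while in cycling-like cells of over 10000 UMIs they are at 26.7 and 23.2%.

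After each cell was thinned to 1000 UMIs, 61.4% of WT and 57.4% of cKO non-cycling DP-like cells had an *Ldhb* UMI (75.3 and 70.1% before thinning). Early post-selection-like cells had 47.6 and 51.3%, cycling-like cells 30.2 and 25.4%, mature SP-like cells 22.3 and 19.9%, and DN-like cells 16.7 and 20.3%. Erythroid-like cells, set beside these as a measure of free RNA although red cells also carry some lactate dehydrogenase, had 2.27% in WT (1 of 44 cells) and 0% in cKO, where 4 cells allow a share of up to 60.2%. *Ldha* was found in 15.5 and 21.8% of thinned DP-like cells, 23.9 and 31.3% of cycling-like cells and 28.7 and 29.4% of mature SP-like cells, against 2.27 and 0% of erythroid-like cells. The 5 T cell classes were thus above the WT erythroid-like share for both genes, with intervals that overlapped it in WT DN-like cells (9.84 to 25.7% for *Ldhb* and 10.7 to 26.8% for *Ldha*, against 0.0575 to 12.02%), and with median depths of 6089.5 and 3017 UMIs in the erythroid-like cells before thinning. They were not all above antigen-presenting-like cells. There *Ldhb* was found in 29.0% (18 of 62 cells) in WT and 60% (38.7 to 78.9, 15 of 25 cells) in cKO, and *Ldha* in 14.5 and 28%. The part of free RNA in these shares was not tested.

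Summed over the 20 glycolysis genes, the list took 30.02, 41.7, 30.4, 40.3 and 28.2 of every 10000 UMIs in WT and 36.9, 51.6, 36.1, 46.6 and 34.6 in cKO. Cycling-like and early post-selection-like cells had the highest shares in both libraries. *Gapdh* was a large part of these sums, which without it were 15.9, 19.4, 22.0, 24.8 and 18.5 in WT and 17.7, 22.5, 22.4, 26.1 and 20.2 in cKO, so that cycling-like cells were no longer highest. Without *Ldhb* the sums were 28.2, 38.7, 19.5, 32.7 and 26.0 in WT and 35.0, 48.9, 26.8, 39.7 and 32.1 in cKO, with non-cycling DP-like cells lowest. The 17 TCA genes took 15.1, 18.4, 16.1, 15.3 and 14.2 of every 10000 UMIs in WT and 16.0, 19.0, 17.4, 16.9 and 15.3 in cKO, a flatter course than that of the glycolysis list.

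Against non-cycling DP-like cells of the same library, the glycolysis genes were called in both directions in every class. The 4 comparisons within a library share these DP-like cells. In WT DN-like cells 4 of 17 measured glycolysis genes were higher and 5 lower, and 2 of 17 TCA genes were higher and 4 lower, against 14.5% of all measured genes higher and 51.6% lower. In cKO DN-like cells 4 of 14 glycolysis genes were higher and 4 lower, and 2 of 17 TCA genes higher and 6 lower, against 12.5 and 52.3%. In both lists the share of lower genes was thus under that of all genes.

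In WT cycling-like cells 6 of 18 glycolysis genes were higher and 4 lower, and 5 of 17 TCA genes higher and 3 lower, against 17.3% of all measured genes higher and 52.9% lower. In cKO cycling-like cells 7 of 18 glycolysis genes were higher and 4 lower, and 3 of 17 TCA genes higher and 3 lower, against 15.2 and 55.8%. WT early post-selection-like cells had 9 of 18 glycolysis genes higher and 3 lower, but no TCA gene of 17 higher and 1 lower, against 11.9 and 24.8%. The cKO early class had 7 of 17 glycolysis genes higher and 1 lower, and 2 of 17 TCA genes higher and 2 lower, against 9.43 and 28.0%. The glycolysis share of higher genes in this class was thus above the background in both libraries, and the TCA share was below it in WT and near it in cKO. In WT mature SP-like cells 8 of 17 glycolysis genes were higher and 4 lower, and 1 of 17 TCA genes higher and 4 lower, against 13.0 and 46.4%. In cKO mature SP-like cells 5 of 16 glycolysis genes were higher and 3 lower, and 2 of 17 TCA genes higher and 2 lower, against 7.95 and 50.4%.

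Median log2 ratios of the glycolysis genes were 0.09, 0.00, 0.59 and 0.50 in WT DN-like, cycling-like, early and mature cells and 0.25, 0.04, 0.35 and 0.30 in the cKO library. TCA medians were -0.10, 0.18, -0.09 and -0.19 in WT and 0.00, 0.19, -0.13 and -0.17 in cKO. The medians of all measured genes lay below these, at -0.54, -0.58, -0.14 and -0.44 in WT and -0.55, -0.64, -0.20 and -0.51 in cKO. When each class was scaled to its median gene instead of its total, DN-like cells had 11 glycolysis genes higher and 5 lower in WT and 9 and 3 in cKO, and 8 TCA genes higher and 1 lower in WT and 10 and 0 in cKO. Cycling-like cells then had 9 higher and 1 lower in WT and 11 and 2 in cKO for glycolysis, and 11 and 0 in WT and 12 and 0 in cKO for the TCA genes. Early post-selection-like cells then had 11 and 1 in WT and 9 and 1 in cKO for glycolysis, and 2 and 1 in WT and 4 and 1 in cKO for the TCA genes. Mature SP-like cells then had 12 and 2 in both libraries for glycolysis, and 5 and 2 in WT and 5 and 1 in cKO for the TCA genes. In these 4 classes, 29.3, 31.9, 17.04 and 24.5% of all WT genes were then higher and 28.2, 28.2, 18.3 and 21.8% lower, and of all cKO genes 27.5, 31.1, 16.3 and 21.3% were higher and 28.4, 28.7, 17.6 and 22.2% lower. With the 50 most abundant genes left out of the totals, the DN-like splits were 8 higher and 5 lower in WT and 7 and 4 in cKO for glycolysis and 5 and 2 and 4 and 4 for the TCA genes, the TCA splits of cycling-like cells were 6 and 2 in WT and 5 and 2 in cKO, and the mature SP-like splits were 9 and 2 for glycolysis in cKO and 1 and 2 in WT and 2 and 1 in cKO for the TCA genes. Of all genes, 19.9, 20.4 and 17.3% were then higher in DN-like, cycling-like and mature WT cells and 41.0, 46.9 and 32.8% lower, and 16.6, 17.4 and 12.6% were higher and 43.3, 50.5 and 35.2% lower in cKO. The counts of higher and lower genes between stages thus depended on the scaling, which by construction shifts all genes of a class alike and leaves the differences between genes as they were.

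**Figure D3:**
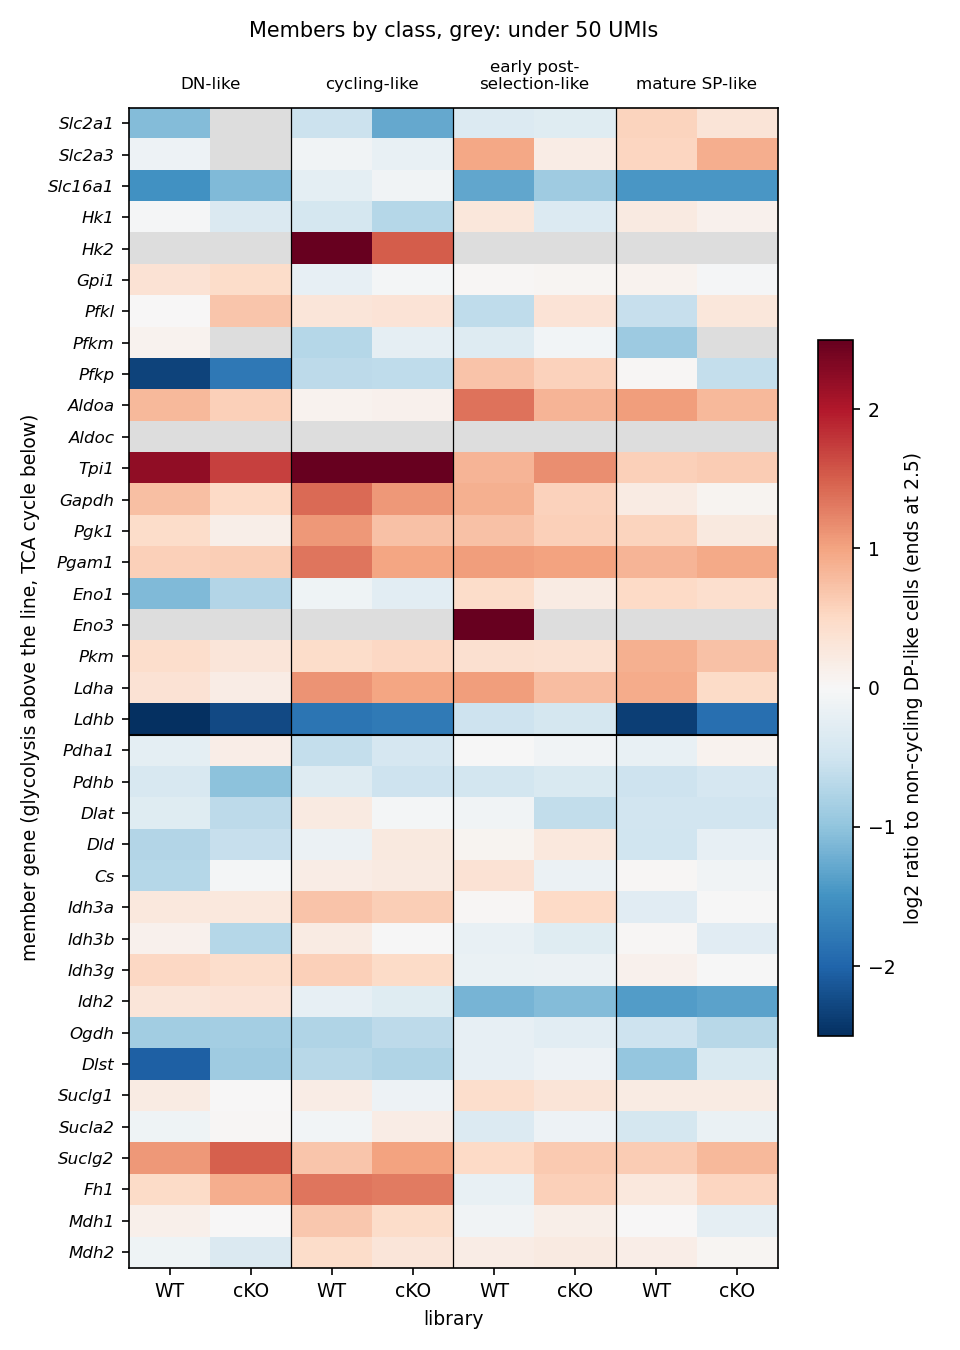
Log2 ratio of each gene's CPM in a class to that in non-cycling DP-like cells of the same library (colour, ending at 2.5), with glycolysis genes above the line and TCA cycle genes below it and grey for genes under 50 UMIs. *Tpi1* is red in all 8 columns, with 2.80 and 2.595 in cycling-like cells, and *Ldhb* is blue in all 8, while *Idh2* is blue only in the early post-selection-like and mature SP-like columns at more than the limit.

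Among the transporters, *Slc16a1*, which encodes the lactate and pyruvate carrier MCT1, had levels of 21.1, 50.7, 59.8, 24.4 and 21.9 CPM in WT and 24.5, 49.4, 52.6, 28.5 and 19.3 CPM in cKO. Cycling-like and DP-like cells were high and the other classes low in both libraries. Against DP-like cells its ratios were -1.51 (-2.43 to -0.71) and -1.10 (-1.81 to -0.46) in DN-like cells of WT and cKO, -1.29 (-1.86 to -0.77) and -0.89 (-1.49 to -0.33) in the early class and -1.45 (-1.86 to -1.06) and -1.45 (-2.17 to -0.79) in mature SP-like cells. *Slc2a3*, a high-affinity glucose transporter, had 14.6, 14.96, 16.0, 31.1 and 23.3 CPM in WT and 7.79, 9.98, 11.3, 12.9 and 21.1 CPM in cKO. It was beyond the limit in both libraries in mature SP-like cells, with 0.54 (0.05 to 1.02) in WT and 0.90 (0.08 to 1.69) in cKO. *Slc2a1*, the glucose transporter GLUT1, had 4.86, 7.05, 10.3, 8.15 and 15.1 CPM in WT and 1.11, 6.08, 14.7, 11.9 and 18.4 CPM in cKO, from 3 and 1 UMIs in DN-like cells. Its cycling-like ratio was -0.54 (-1.13 to 0.05) in WT, which turned to 0.04 when classes were scaled to their median gene, and -1.27 (-1.83 to -0.70) in cKO.

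Hexokinase traps glucose in the cell as glucose 6-phosphate. *Hk1* had 72.9, 54.6, 74.4, 91.1 and 86.5 CPM in WT and 44.5, 34.7, 56.9, 45.0 and 61.6 CPM in cKO, with cycling-like cells lowest in both. *Hk2* was scarce, with 3 to 92 UMIs over the classes and libraries, and it stood at 21.1, 12.6, 1.97, 8.89 and 3.76 CPM in WT and 10.01, 8.74, 3.06, 13.8 and 2.76 CPM in cKO. It was higher in cycling-like than in DP-like cells by 2.67 (1.72 to 3.78) in WT and 1.52 (0.57 to 2.62) in cKO, resting on 10 DP-like UMIs in each library. The *Hk2* share of the hexokinase tags was 22.4, 18.7, 2.58, 8.89 and 4.17% in WT and 18.4, 20.1, 5.10, 23.4 and 4.29% in cKO, so that the DP-like share was lowest in WT, and the mature SP-like and DP-like shares were lowest in cKO. *Gpi1*, the isomerase that follows, had 225, 151, 175, 179 and 187 CPM in WT and 230.3, 163, 168, 174 and 165 CPM in cKO and passed the limit against DP-like cells in no class.

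Phosphofructokinase is the committed step of glycolysis, and its tags shifted between subunits. *Pfkp*, the platelet form, had 13.0, 40.8, 64.6, 106 and 66.0 CPM in WT and 13.3, 29.5, 45.9, 68.0 and 30.3 CPM in cKO. DN-like cells were low, with ratios of -2.32 (-3.54 to -1.32) in WT from 8 UMIs and -1.78 (-2.76 to -0.93) in cKO, cycling-like cells were at -0.66 and -0.63, and early post-selection-like cells at 0.71 and 0.57. With median gene scaling the cKO cycling-like ratio of *Pfkp* was 0.01. *Pfkl*, the liver form, had 24.3, 29.6, 24.1, 15.6 and 16.1 CPM in WT and 25.6, 20.1, 15.9, 20.2 and 19.3 CPM in cKO. Its ratios went apart in the 2 libraries, with 0.69 (-0.09 to 1.42) in cKO DN-like cells and -0.63 (-1.37 to 0.05) in WT early cells, and both of these intervals reached 0. *Pfkm*, the muscle form, had 22.7, 13.0, 21.3, 17.0 and 11.3 CPM in WT and 12.2, 9.88, 11.6, 11.02 and 5.52 CPM in cKO and was at -0.72 (-1.13 to -0.30) in WT cycling-like cells. *Pfkp* made up 21.6, 48.9, 58.7, 76.5 and 70.7% of the phosphofructokinase tags in WT and 26.1, 49.6, 62.5, 68.5 and 55.0% in cKO, lowest in DN-like cells of both libraries.

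Aldolase splits the 6-carbon sugar. *Aldoa* had 179.7, 110.0, 103, 262 and 211 CPM in WT and 198, 142, 131, 236 and 231 CPM in cKO, high in early and mature cells and low in cycling-like and DP-like cells. It was higher than in DP-like cells by 1.35 (1.15 to 1.55) in WT and 0.84 (0.62 to 1.07) in cKO early cells, by 1.04 (0.87 to 1.21) and 0.81 (0.58 to 1.04) in mature SP-like cells and by 0.81 (0.50 to 1.10) and 0.59 (0.33 to 0.85) in DN-like cells, while cycling-like cells were at 0.10 and 0.11. *Aldoc*, the brain form, was hardly detected, with 11 UMIs in the WT and 6 in the cKO library, and was measured in no comparison.

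*Tpi1*, which interconverts the triose phosphates, was the member with the highest ratio in cycling-like cells of both libraries. It had 102, 153, 21.9, 39.3 and 33.2 CPM in WT and 136, 249, 41.3, 91.8 and 64.4 CPM in cKO, from 53 to 2625 UMIs. Cycling-like levels were highest, DN-like levels second and non-cycling DP-like levels lowest in both libraries. Its ratio was 2.80 (2.52 to 3.10) in WT and 2.595 (2.35 to 2.86) in cKO cycling-like cells, 2.22 (1.75 to 2.68) and 1.72 (1.35 to 2.08) in DN-like cells, 0.84 (0.34 to 1.33) and 1.15 (0.77 to 1.54) in early cells and 0.60 and 0.64 in mature SP-like cells. The early class pooled unlike clusters. WT and cKO levels of *Tpi1* were 30.4 and 44.4 CPM in cluster 4, near the DP-like levels in cKO, and 66.6 and 176 CPM in cluster 10. *Gapdh*, the glyceraldehyde phosphate dehydrogenase, had 1417, 2238, 836, 1545 and 964 CPM in WT and 1926, 2912, 1369, 2053 and 1443 CPM in cKO, with DP-like cells lowest. Its cycling-like ratio was 1.42 (1.37 to 1.47) in WT and 1.09 (1.04 to 1.13) in cKO, its DN-like ratio 0.76 (0.66 to 0.87) in WT and 0.49 in cKO. *Gapdh* counts are uncertain, since 73.3% of the 90-base stretches in its last 400 bases occur in other annotated genes, 2 of which are in the count tables.

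*Pgk1*, which makes the first ATP of the pathway, had 119.8, 184, 87.5, 144 and 128 CPM in WT and 158, 239, 143, 216 and 169 CPM in cKO, and was higher by 1.08 (0.92 to 1.23) and 0.74 (0.60 to 0.88) in cycling-like cells of WT and cKO. *Pgam1*, phosphoglycerate mutase, had 66.4, 110.5, 43.8, 90.4 and 79.4 CPM in WT and 110.1, 141, 71.5, 144 and 138 CPM in cKO. Non-cycling DP-like cells were lowest in both libraries, and *Pgam1* passed the limit above them in all 4 other classes of both. Its ratios were 1.33 (1.12 to 1.56) and 0.98 (0.78 to 1.19) in cycling-like cells, 1.04 (0.71 to 1.37) and 1.01 (0.71 to 1.31) in early cells and 0.86 (0.58 to 1.13) and 0.95 (0.64 to 1.25) in mature SP-like cells of WT and cKO. *Pgam1*, *Tpi1* and *Aldoa* were higher than in DP-like cells in 3 or more classes of both libraries.

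Enolase was represented by *Eno1* and *Eno3*. *Eno1* had 19.4, 38.8, 41.9, 57.8 and 59.2 CPM in WT and 51.2, 71.4, 85.3, 98.3 and 114 CPM in cKO, lowest in DN-like cells of both, with ratios of -1.11 (-2.08 to -0.27) and -0.74 (-1.22 to -0.28). *Eno1* is uncertain, since 68.8% of the 90-base stretches in its last 400 bases also occur in the copy *Eno1b*, which took 3516 UMIs in the WT and 3275 in the cKO library against 807 and 1409 for *Eno1*. *Eno3*, the muscle form, stood out in early post-selection-like cells, with 6.48, 4.09, 2.17, 33.3 and 11.3 CPM in WT and 3.34, 2.57, 1.22, 40.4 and 10.1 CPM in cKO. Its early level rested on 45 UMIs in WT and 44 in cKO, of which 39 in each library came from cluster 10 (105 and 93 cells), where it reached 118 and 100 CPM. *Eno3* was among the 10 leading genes of this cluster although it was left out of the clustering. The WT ratio was 3.94 (2.97 to 5.04), and the cKO ratio was not formed because 44 UMIs stood against 4 in DP-like cells, under the limit of 50. *Eno3* made up 25, 9.54, 4.93, 36.6 and 16.0% of *Eno1* and *Eno3* tags in WT and 6.12, 3.47, 1.41, 29.1 and 8.15% in cKO, and with *Eno1b* counted as enolase the early share was 9.36 and 11.4%.

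*Pkm*, the pyruvate kinase gene of most tissues, had 248, 251, 182, 239 and 335 CPM in WT and 257, 296, 208, 272 and 346 CPM in cKO. Mature SP-like cells were highest and DP-like cells lowest in both libraries, with mature ratios of 0.88 (0.75 to 1.01) in WT and 0.74 (0.55 to 0.92) in cKO.

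Of the pyruvate dehydrogenase genes, *Pdhb* (E1 beta) had 89.1, 94.1, 118, 85.9 and 82.4 CPM in WT and 79.0, 112, 161, 123 and 120.4 CPM in cKO and was highest in DP-like cells of both. Its DN-like ratio was -0.41 in WT and -1.03 (-1.41 to -0.67) in cKO, and its cKO cycling-like ratio of -0.52 turned to 0.12 with median gene scaling. *Pdha1* (E1 alpha) ranged from 51.8 to 78.8 CPM over classes and libraries. *Dlat* (E2) had 24.3, 35.1, 30.01, 28.2 and 21.6 CPM in WT and 17.8, 27.1, 28.1, 18.4 and 20.2 CPM in cKO, with -0.61 (-1.39 to 0.09) in cKO early cells, an interval that reached 0. *Dld* (E3, shared with the oxoglutarate dehydrogenase complex) had 21.1, 31.5, 34.7, 36.3 and 24.6 CPM in WT and 20.02, 35.2, 29.7, 35.8 and 25.7 CPM in cKO and was lower in DN-like cells of both, at -0.72 and -0.57.

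Citrate synthase (*Cs*) starts the cycle, and the NAD-dependent isocitrate dehydrogenase has 3 kinds of subunit. *Cs* had 61.5, 114, 100.3, 128 and 103 CPM in WT and 86.8, 104, 89.6, 80.8 and 84.6 CPM in cKO. *Idh3a*, the catalytic subunit, had 43.7, 59.4, 36.3, 37.0 and 29.8 CPM in WT and 48.9, 63.0, 41.0, 57.9 and 40.5 CPM in cKO and was higher in cycling-like cells of both, by 0.71 and 0.62. *Idh3b* ranged from 50.1 to 81.6 CPM and *Idh3g* from 85.2 to 144 CPM.

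*Idh2*, the mitochondrial NADP-dependent isocitrate dehydrogenase, set post-selection cells apart from all earlier classes. It had 207, 145, 168, 75.6 and 63.6 CPM in WT and 229, 147, 181, 85.4 and 71.7 CPM in cKO, from 78 to 1552 UMIs. The intervals of DN-like, cycling-like and DP-like cells all lay above those of early and mature cells, the highest of which was 85.4 (68.9 to 105) CPM. Against DP-like cells its ratio was -1.16 (-1.47 to -0.86) in WT and -1.08 (-1.41 to -0.77) in cKO early cells, and -1.40 (-1.64 to -1.17) and -1.34 (-1.70 to -0.99) in mature SP-like cells.

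*Ogdh*, the first enzyme of the oxoglutarate dehydrogenase complex, had 71.2, 77.3, 129.9, 113 and 91.0 CPM in WT and 53.4, 61.6, 96.6, 80.8 and 59.8 CPM in cKO, with DP-like cells highest. It was at -0.75 (-0.91 to -0.58) in WT and -0.65 in cKO cycling-like cells and at -0.51 and -0.69 (-1.10 to -0.30) in mature SP-like cells. *Dlst*, its second enzyme, had 21.1, 53.6, 86.5, 74.8 and 44.1 CPM in WT and 30.04, 33.1, 55.3, 50.5 and 42.3 CPM in cKO, again with DP-like cells highest. Its ratios were -2.04 (-2.96 to -1.25) and -0.88 in DN-like cells, -0.69 (-0.89 to -0.49) and -0.74 (-1.01 to -0.48) in cycling-like cells, and -0.97 (-1.27 to -0.68) and -0.39 in mature SP-like cells of WT and cKO. *Dld*, also of this complex, showed no clear highest class. Its early levels were 36.3 CPM in WT (49 UMIs) and 35.8 CPM in cKO (39 UMIs). WT DP-like cells were near these at 34.7 CPM and cKO cycling-like cells at 35.2 CPM.

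Succinyl-CoA ligase pairs *Suclg1* with a subunit that makes ATP (*Sucla2*) or GTP (*Suclg2*). *Suclg2* had 35.6, 27.1, 16.8, 23.7 and 26.0 CPM in WT and 41.2, 29.5, 14.7, 23.0 and 25.7 CPM in cKO, lowest in DP-like cells of both. Its DN-like ratio was 1.09 (0.34 to 1.78) in WT and 1.49 (0.83 to 2.14) in cKO, and its mature SP-like ratio 0.63 and 0.81 (0.08 to 1.51). Among cells of 1000 to 10000 UMIs with at most 3% mitochondrial UMIs, its WT cycling-like ratio was -0.18 in place of 0.69. *Suclg2* made up 45.8, 38.6, 27.1, 40.0 and 43.7% of *Sucla2* and *Suclg2* tags in WT and 49.3, 38.6, 26.2, 37.9 and 41.2% in cKO. *Suclg1* ranged from 81.3 to 112 CPM and *Sucla2* from 33.5 to 46.9 CPM.

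*Fh1*, fumarate hydratase, was the TCA gene with the highest cycling-like ratio in both libraries. It had 42.1, 76.8, 30.4, 26.7 and 36.3 CPM in WT and 65.6, 85.8, 34.9, 52.3 and 50.6 CPM in cKO, and its cycling-like ratio was 1.34 (1.08 to 1.604) in WT and 1.30 (1.02 to 1.59) in cKO, followed by 0.91 (0.43 to 1.38) in cKO DN-like cells. *Mdh1*, the cytosolic malate dehydrogenase, had 189, 277, 173, 164 and 174 CPM in WT and 212, 291, 212, 235 and 182 CPM in cKO, and *Mdh2*, the mitochondrial enzyme of the cycle, 303, 453, 328, 375 and 366 CPM in WT and 318, 500.0, 408, 477 and 419 CPM in cKO. Cycling-like cells were highest for both genes and in both libraries. *Mdh1* made up 38.5, 37.9, 34.6, 30.4 and 32.2% of malate dehydrogenase tags in WT and 40.0, 36.8, 34.2, 33.0 and 30.3% in cKO. Over all 37 genes, the class with the highest level was the same in both libraries for 27 genes, and so was the class with the lowest level for 27 genes. The same share over all genes of the count tables is not given here, so this is not read as particular to the members.

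Cycling state was set for every cell at equal depth, by at least 3 UMIs of 42 cell cycle genes after thinning to 1000 UMIs. By 0, 1 to 2, 3 to 5, 6 to 10 and over 10 such UMIs, T cells of the WT library had glycolysis sums of 30.7, 32.3, 40.5, 42.6 and 37.8 per 10000 UMIs, and cKO cells 37.6, 41.0, 52.5, 52.0 and 47.4. TCA sums were 15.4, 15.7, 17.5, 18.7 and 17.6 in WT and 16.6, 17.2, 18.7, 18.4 and 19.5 in cKO. The step lay between 1 to 2 and 3 to 5 cycle UMIs for both lists and was larger for glycolysis, with *Gapdh* included. *Gapdh*, whose counts are uncertain, was a large part of the class sums above. Sums without it are not given here for these groups, so a step of the other glycolysis genes is not shown. Median UMIs per cell moved with it, from 1536 to 2930.5 in WT and from 1534 to 5349 in cKO, and their part in the result was not tested. Within cycling-like cells of under 2000, 2000 to 5000, 5000 to 10000 and over 10000 UMIs the glycolysis sum was 32.8, 38.5, 39.2 and 44.6 in WT and 44.3, 46.1, 48.6 and 54.6 in cKO.

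**Figure D4:**
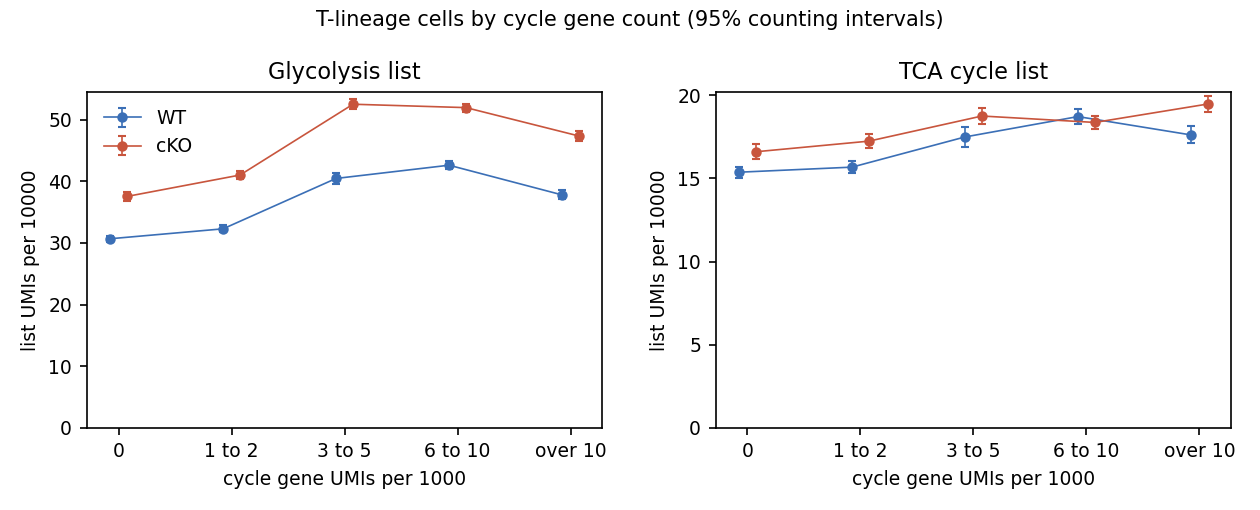
Sums of the glycolysis (left) and TCA cycle lists (right) in UMIs per 10000, over T cells grouped by cell cycle gene UMIs per 1000, with WT in blue, cKO in red and bars for 95% counting intervals. The glycolysis sums, *Gapdh* included, go from 30.7 and 37.6 in cells with 0 cycle UMIs to 42.6 and 52.0 in those with 6 to 10, and the TCA sums stay between 15.4 and 19.5.

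Cycling and non-cycling cells were also compared within DN-like (23 and 73 WT cells, 28 and 100 cKO cells), DP-like (129 and 3212, 124 and 1986) and mature SP-like clusters (77 and 708, 25 and 261). Cells near the limit were frequent in DP-like clusters, where 341 WT and 277 cKO cells had 2 cycle UMIs and 86 and 83 had 3. In DN-like cells 1 of 8 measured glycolysis genes was higher and 1 lower in WT and 2 of 9 higher and 2 lower in cKO, and 2 of 6 TCA genes were higher and 1 lower in WT and none of 9 higher and 1 lower in cKO, against 19.1 and 22.0% of all genes in WT and 16.3 and 10.9% in cKO. In DP-like cells 3 of 17 glycolysis genes were higher and 4 lower in WT and 2 of 15 higher and 2 lower in cKO, and 1 of 17 TCA genes was higher and 2 lower in WT and 4 of 17 higher and 2 lower in cKO, against 13.7 and 23.1% in WT and 20.3 and 15.5% in cKO. In mature SP-like cells 2 of 14 glycolysis genes were higher and 4 lower in WT and 1 of 11 higher and 3 lower in cKO, and 2 of 17 TCA genes were higher and 2 lower in WT and 1 of 11 higher and 2 lower in cKO, against 13.1 and 25.3% in WT and 13.4 and 26.5% in cKO. Few members were measured in DN-like cells, and these shares lay on both sides of those of all genes.

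Within these classes *Ldhb* was lower in cycling cells of both libraries in DN-like cells, at -1.65 (-2.57 to -0.84) in WT and -0.56 (-1.09 to -0.06) in cKO, and in mature SP-like cells, at -0.88 (-1.29 to -0.49) and -1.32 (-1.99 to -0.72), but within the limit in DP-like cells, at -0.42 (-0.65 to -0.20) and -0.26 (-0.50 to -0.03). *Tpi1* was higher in cycling DN-like cells, at 1.004 (0.24 to 1.76) in WT and 1.01 (0.47 to 1.55) in cKO. In DP-like cells *Tpi1* was at 0.12 (-1.53 to 1.39) in WT and 1.31 (0.57 to 1.98) in cKO, and in mature SP-like cells at 0.34 (-0.47 to 1.08) and 1.13 (0.35 to 1.87). *Aldoa* was lower in cycling mature SP-like cells, at -1.16 (-1.61 to -0.73) and -0.82 (-1.42 to -0.26), and in cycling cKO DN-like cells, at -0.68 (-1.22 to -0.17).

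The further members at the ends of these comparisons rested on few UMIs, with wide intervals. In DN-like cells of WT, *Idh3g* was at 0.90 (0.25 to 1.55), *Mdh1* at 0.52 (-0.05 to 1.07), *Pgk1* at 0.43 (-0.31 to 1.13), *Pdhb* at -0.70 (-1.76 to 0.25), *Mdh2* at -0.20 (-0.68 to 0.27) and *Gpi1* at -0.17 (-0.73 to 0.38). DN-like cells of cKO had *Pgam1* at 0.79 (0.19 to 1.39), *Gapdh* at 0.42 (0.28 to 0.57), *Suclg1* at 0.29 (-0.41 to 0.97), *Pdha1* at -0.82 (-1.75 to 0.03) and *Idh2* at -0.13 (-0.58 to 0.31). For DP-like cells of WT the ends were *Slc2a3* at 1.06 (-0.30 to 2.17), *Eno1* at 0.77 (-0.09 to 1.53), *Cs* at 0.73 (0.20 to 1.23) and *Hk1* at 0.56 (-0.12 to 1.17), and *Dld* at -2.87 (-8.18 to -0.37), *Pfkl* at -2.34 (-7.65 to 0.17), *Idh3a* at -1.35 (-3.64 to 0.22) and *Slc2a1* at -1.11 (-6.44 to 1.43). Those of cKO were *Dlst* at 1.14 (0.47 to 1.75), *Suclg2* at 0.99 (-0.52 to 2.22) and *Pdhb* at 0.65 (0.21 to 1.07), and *Hk1* at -1.55 (-3.44 to -0.16), *Suclg1* at -0.74 (-1.76 to 0.12), *Ogdh* at -0.73 (-1.69 to 0.10) and *Slc2a1* at -0.59 (-3.68 to 1.34). Among mature SP-like cells of WT, *Idh3a* was at 1.67 (0.997 to 2.32), *Fh1* at 0.68 (-0.03 to 1.35), *Pgam1* at 0.55 (0.07 to 1.01) and *Gapdh* at 0.51 (0.38 to 0.64), with *Slc2a3* at -1.28 (-2.95 to 0.02) and *Dlat* at -0.87 (-2.37 to 0.34). Among those of cKO, *Fh1* was at 0.51 (-0.48 to 1.42), *Idh3g* at 0.50 (-0.18 to 1.13) and *Pgam1* at 0.45 (-0.12 to 1.001), with *Hk1* at -1.91 (-3.83 to -0.49) and *Pdhb* at -0.59 (-1.39 to 0.14). *Hk1* thus lay above the limit in cycling DP-like cells of WT and below it in those of cKO, while *Slc2a1* lay below it in both.

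In the comparison of cKO with WT, *Eno1* was higher in cKO cells of all 5 classes, *Tpi1* and *Pgam1* in 4 and *Gapdh* and *Pgk1* in 2, while *Hk1* was lower in 3, although relative to genes of the same span it lay above 0 in 4. The *Eno1* counts are uncertain because of its copy *Eno1b*, and a higher level of both copies together is not shown for every class. Among DN-like cells 2 of 11 measured glycolysis genes were higher and 1 lower, and 1 of 14 TCA genes was higher and none lower, against 10.7% of all measured genes higher and 25.8% lower. Among cycling-like cells 2 of 19 glycolysis genes were higher and 5 lower, and none of 17 TCA genes was higher and 1 lower, against 3.18 and 35.4%. Among non-cycling DP-like cells 6 of 17 glycolysis genes were higher and 2 lower, and none of 17 TCA genes was higher and 1 lower, against 8.20 and 30.5%. Early post-selection-like cells had 4 of 15 glycolysis genes higher and 3 lower, and 4 of 17 TCA genes higher and 3 lower, against 8.25 and 34.4%. Mature SP-like cells had 4 of 16 glycolysis genes higher and 1 lower, and 1 of 17 TCA genes higher and 1 lower, against 8.35 and 36.1%. The share of higher glycolysis genes was thus above that of all genes in each class. It rested on only 2 genes in DN-like cells (*Pgam1* and *Eno1*) and on 2 in cycling-like cells (*Tpi1* and *Eno1*). Under the stricter cell filter given below, the DN-like share was 1 of 10 against 10.6%.

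Median ratios of the glycolysis genes were 0.28, -0.04, 0.19, 0.19 and 0.19 in the 5 classes, and those of the TCA genes 0.11, 0.07, 0.10, 0.08 and 0.09. All measured genes had medians of -0.09, -0.27, -0.19, -0.23 and -0.25. The early glycolysis median was -0.15 at resolution 0.6, 0.22 at resolution 1.6, -0.03 with each library clustered by itself and -0.04 under the stricter cell filter. With each library clustered by itself the mature SP-like median was -0.01. Under the stricter filter the cycling-like median was 0.11. The sign of these glycolysis medians thus depended on which cells were in a class. Scaled to the median gene, 4, 8, 8, 6 and 7 glycolysis genes were higher and 1, 0, 1, 2 and 1 lower, and 2, 2, 3, 6 and 3 TCA genes were higher and none lower, against 15.3, 11.9, 16.8, 17.99 and 19.8% of all genes higher and 21.97, 21.5, 20.6, 23.2 and 24.9% lower. With the 50 most abundant genes left out of the totals, 2 glycolysis genes were higher and 3 lower in cycling-like cells, 2 TCA genes were higher and 1 lower in DP-like cells, 4 higher and 2 lower in early cells and 3 higher and none lower in mature SP-like cells, against 4.41% of all genes higher and 31.2% lower in cycling-like, 11.5 and 25.6% in DP-like, 11.96 and 29.1% in early and 12.5 and 30.8% in mature SP-like cells. Among DN-like cells of 1000 to 10000 UMIs with at most 3% mitochondrial UMIs, *Pgam1*, *Hk1* and *Fh1* were within the limit, at 0.22, -0.37 and 0.34, and *Eno1* was not measured. There 1 of 10 glycolysis genes was higher and none lower, and 1 of 12 TCA genes higher and 2 lower, against 10.6 and 25.9% of all genes.

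*Eno1* was the member furthest above WT in DN-like, cycling-like and DP-like cKO cells. Its levels, 19.4, 38.8, 41.9, 57.8 and 59.2 CPM in WT and 51.2, 71.4, 85.3, 98.3 and 114 CPM in cKO, had intervals that lay apart in every class. The ratios were 1.40 (0.46 to 2.45) in DN-like, 0.88 (0.68 to 1.09) in cycling-like, 1.03 (0.76 to 1.29) in DP-like, 0.77 (0.33 to 1.21) in early and 0.95 (0.60 to 1.29) in mature SP-like cells. *Eno1* made up 16.7, 18.8, 25, 17.9 and 14.0% of *Eno1* and *Eno1b* tags in WT and 35.9, 28.9, 33.3, 31.2 and 27.4% in cKO. The split of tags between these copies thus differed between the libraries. *Eno1* and *Eno1b* together had 72, 1465 and 848 UMIs in DN-like, cycling-like and DP-like WT cells. In the same cKO classes they had 128, 2598 and 839 UMIs. The totals of these classes were 617548, 7087790 and 5065324 UMIs in WT and 898922, 10524967 and 3271009 in cKO. In early and mature SP-like WT cells the copies together had 436 and 1240 UMIs. Their cKO sums in early and mature SP-like cells are not given here. A higher level of both copies together in cKO is therefore not shown there. The part of the split between the copies in the *Eno1* ratio was not tested.

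*Tpi1*, with the levels given above, was higher in cKO in 4 of 5 classes, and within the limit in DN-like cells, where its interval reached 0. Its ratios were 0.41 in DN-like, 0.71 (0.60 to 0.81) in cycling-like, 0.91 (0.54 to 1.29) in DP-like, 1.23 (0.73 to 1.73) in early and 0.96 (0.49 to 1.41) in mature SP-like cells. The early ratio pooled unlike clusters, with WT and cKO levels of 30.4 and 44.4 CPM in cluster 4 and 66.6 and 176 CPM in cluster 10. *Pgam1* ratios were 0.73 (0.19 to 1.29) in DN-like, 0.36 in cycling-like, 0.71 (0.44 to 0.98) in DP-like, 0.67 (0.32 to 1.03) in early and 0.80 (0.49 to 1.10) in mature SP-like cells, from 43.8 in WT and 71.5 CPM in cKO DP-like cells. *Gapdh* was beyond the limit in DP-like cells, at 0.71 (0.65 to 0.77), and in mature SP-like cells, at 0.58 (0.49 to 0.67), and at 0.38 (0.35 to 0.41) in cycling-like cells. *Pgk1* was at 0.71 (0.52 to 0.90) in DP-like, 0.58 (0.30 to 0.86) in early and 0.38 (0.28 to 0.47) in cycling-like cells. In all 5 classes *Tpi1*, *Gapdh*, *Pgk1*, *Pgam1*, *Eno1*, *Pkm* and *Ldha* had ratios above 0 among the 11 glycolysis genes measured in every class, while *Hk1* was below 0. All 5 classes came from the same 2 libraries.

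*Hk1* ratios were -0.71 (-1.36 to -0.06) in DN-like, -0.65 (-0.87 to -0.44) in cycling-like, -0.39 (-0.65 to -0.13) in DP-like, -1.02 (-1.53 to -0.53) in early and -0.49 (-0.90 to -0.10) in mature SP-like cells. *Slc2a3* was lower in cycling-like cells, at -0.58 (-0.99 to -0.18), and in early cells, at -1.28 (-2.26 to -0.37), and at -0.50 in DP-like cells. *Slc2a1* was at 0.52 (-0.08 to 1.11) in DP-like cells, with an interval that reached 0. *Pfkp* was at -1.12 (-1.70 to -0.58) in mature SP-like, -0.64 (-1.07 to -0.23) in early and -0.49 in DP-like cells, *Pfkm* at -0.88 (-1.45 to -0.33) and *Pfkl* at -0.60 (-1.10 to -0.12) in DP-like and -0.56 in cycling-like cells. *Hk2* was at -0.52 and *Eno3* at -0.67 (-1.49 to 0.13) in cycling-like cells.

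*Ldhb* and *Ldha* kept within the limit between genotypes in every class. *Ldhb* was at 0.12, -0.17 (-0.25 to -0.09), -0.23 (-0.29 to -0.16), -0.13 and 0.25 (0.04 to 0.45) in the 5 classes, and *Ldha* at 0.28, 0.32 (0.25 to 0.38), 0.46 (0.33 to 0.60), 0.19 and 0.01. By cluster, WT and cKO levels of *Ldhb* were 1081 and 654 CPM in DP-like cluster 0, 1053 and 923 CPM in cluster 1 and 1283 and 950 CPM in cluster 2.

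Among the TCA genes *Dlst* was lower in cycling-like, DP-like and early cKO cells, at -0.70 (-0.91 to -0.48), -0.64 (-0.90 to -0.39) and -0.57, and *Ogdh* in mature SP-like cells, at -0.61 (-1.02 to -0.21). *Ogdh* was below 0 in all 5 classes, with -0.42 in DN-like cells. *Fh1* was higher in DN-like cells, at 0.64 (-0.05 to 1.37), an interval that reached 0, and in early cells, at 0.97 (0.35 to 1.62). *Pdhb* was at -0.17 in DN-like, 0.52 in early and 0.55 (0.23 to 0.86) in mature SP-like cells, and *Idh3b* at -0.34 in DN-like cells. *Idh3a* at 0.64, *Mdh1* at 0.52, *Cs* at -0.67 (-1.05 to -0.29) and *Dlat* at -0.62 passed the limit in early cells only, and *Cs* was at 0.50 in DN-like and -0.28 in mature SP-like cells. *Idh3a*, *Idh2*, *Fh1*, *Mdh1* and *Mdh2* were above 0 in all 5 classes among the 14 TCA genes measured in every class.

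**Figure D5:**
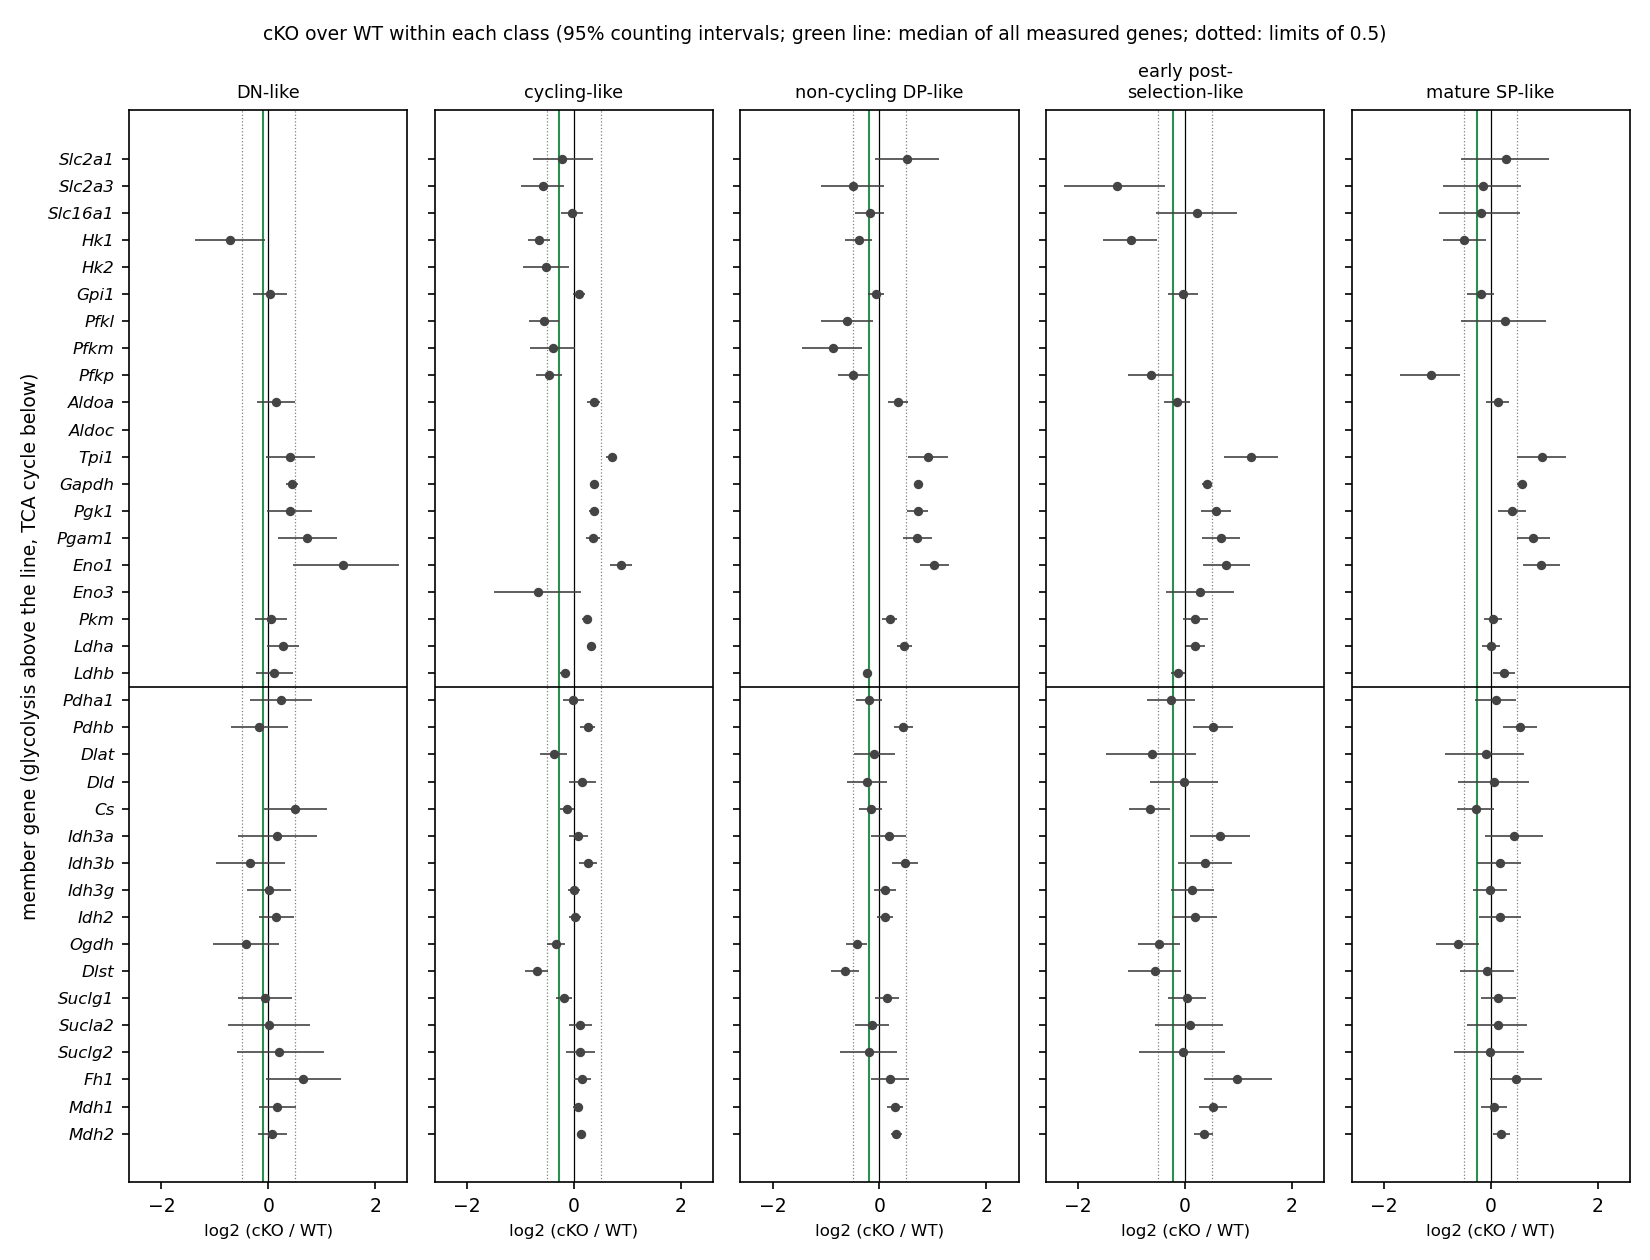
Log2 ratio of cKO over WT for each gene in each class, with bars for 95% counting intervals, a green line at the median of all measured genes, dotted lines at the limits of 0.5 and the TCA cycle genes below the horizontal line. *Tpi1* and *Eno1* lie to the right in all 5 classes (*Tpi1* from 0.41 to 1.23) and *Hk1* to the left in all 5 (from -1.02 to -0.39).

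Genes of long genomic span were lower in cKO in every class. Median ratios of genes spanning up to 5 kb and over 100 kb were 0.11 and -0.85 in DN-like, 0.06 and -0.97 in cycling-like, 0.21 and -0.79 in DP-like, 0.13 and -0.89 in early and 0.10 and -0.996 in mature SP-like cells. *Hk1* spans 111054, *Slc2a3* 73832, *Pfkp* 69010 and *Ogdh* 65010 bases, against 3711 for *Tpi1* and 4753 for *Gapdh*. Taken relative to the median of genes of the same span, *Hk1* was at 0.14, 0.32, 0.40, -0.13 and 0.51 in the 5 classes, thus above its bin in 4 of them, and *Tpi1* at 0.31, 0.65, 0.70, 1.09 and 0.85. *Slc2a3* was at 0.02 in cycling-like cells on this scale. Relative to span, 2, 3, 6, 4 and 6 glycolysis genes were higher and 0, 1, 1, 1 and 1 lower, and 3, 2, 1, 6 and 4 TCA genes were higher and none lower, against 14.8, 10.1, 12.3, 14.7 and 15.9% of all genes higher and 16.1, 14.4, 13.9, 16.0 and 19.2% lower. The part of span in the ratios beyond this centring was not tested.

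Other measures differed between the 2 libraries too. Summed erythroid markers (6 genes) stood at 2.07 to 5.70 per 10000 UMIs over the 5 WT classes and at 0.11 to 0.87 over the cKO classes, while the glycolysis sum in WT erythroid-like cells was 2.73 per 10000. Stress genes stood at 17.7, 10.98, 7.45, 13.0 and 12.8 per 10000 in WT and 15.4, 14.0, 10.01, 13.7 and 12.6 in cKO, and mitochondrial UMIs at 0.280, 0.507, 0.864, 0.774 and 0.685% in WT and 0.437, 0.406, 1.02, 0.806 and 0.619% in cKO. Antigen-presenting cell markers (17 genes) stood at 0.911 to 1.88 per 10000 in WT and 0.340 to 2.85 in cKO. Their part in the results was not tested.

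Another 50 genes of these pathways, regulators and carriers included, were listed beside the members. Between genotypes 1 of 13 measured genes was higher and 1 lower in DN-like, 1 of 27 and 6 in cycling-like, 1 of 25 and 4 in DP-like, none of 18 and 9 in early and 2 of 20 and 5 in mature SP-like cells, with medians of -0.09, -0.19, -0.11, -0.41 and -0.16. Of all genes, 10.7, 3.18, 8.20, 8.25 and 8.35% were higher in these classes and 25.8, 35.4, 30.5, 34.4 and 36.1% lower. *Pdk1*, the kinase that switches off pyruvate dehydrogenase, was among the 3 lowest in every class, at -1.34 (-1.99 to -0.70), -0.95 (-1.20 to -0.69), -1.19 (-1.39 to -1.01), -1.77 (-2.36 to -1.23) and -1.40 (-1.89 to -0.95). *Pfkfb3*, which makes the activator of phosphofructokinase, was at -1.40 (-1.82 to -0.99), -1.09 (-1.48 to -0.71), -0.96 (-1.57 to -0.39) and -1.96 (-3.32 to -0.84) in the last 4 classes. The third of the lowest was *Pdpr*, a regulator of the pyruvate dehydrogenase phosphatase, in cycling-like and DP-like cells, at -1.14 (-1.63 to -0.66) and -1.27 (-1.83 to -0.75), and *Me2*, a malic enzyme, in early and mature SP-like cells, at -1.04 (-1.56 to -0.54) and -0.94 (-1.47 to -0.44), while in DN-like cells *Acly* was at -0.50 (-1.22 to 0.22) and *Me2* at -0.34 (-1.13 to 0.46). *Pdk1* spans 30635 and *Pfkfb3* 82645 bases.

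At the high end, *Mpc1*, a subunit of the mitochondrial pyruvate carrier, was among the 3 highest of these genes in 4 classes, at 0.23 (-0.31 to 0.78) in DN-like, 0.34 (0.22 to 0.47) in cycling-like, 0.51 (0.35 to 0.68) in DP-like and 0.49 (0.17 to 0.81) in early cells. *Got2*, the mitochondrial aspartate aminotransferase, was at 0.53 (-0.14 to 1.24) and *Glud1*, glutamate dehydrogenase, at 0.41 (-0.28 to 1.12) in DN-like cells. *Ldhd* was at 0.56 (-0.33 to 1.51) and *Slc25a1*, the citrate carrier, at 0.25 (-0.08 to 0.60) in cycling-like cells. *Eno1b* was at 0.45 (0.28 to 0.61) and *Glud1* at 0.31 (0.06 to 0.56) in DP-like cells. *Slc25a11*, the oxoglutarate carrier, was at 0.32 (-0.07 to 0.71) and *Glud1* at 0.24 (-0.22 to 0.70) in early cells. Mature SP-like cells had *Slc25a11* at 0.67 (0.33 to 1.01) and *Pdhx* at 0.54 (-0.21 to 1.26).

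Between the stages, 1 of 25 of these genes was higher and 13 lower in WT DN-like cells, 1 of 26 and 11 in cycling-like, 3 of 25 and 5 in early and 2 of 25 and 13 in mature SP-like cells, against 14.5, 17.3, 11.9 and 13.0% of all genes higher and 51.6, 52.9, 24.8 and 46.4% lower. The cKO library had 2 of 21 and 9, 3 of 26 and 13, 3 of 23 and 8 and 2 of 23 and 10, against 12.5, 15.2, 9.43 and 7.95% higher and 52.3, 55.8, 28.0 and 50.4% lower. In cycling-like cells the 3 lowest of both libraries were *Pdk1*, at -2.32 (-2.52 to -2.14) in WT and -2.08 (-2.33 to -1.82) in cKO, *Pdk2*, a further kinase of pyruvate dehydrogenase, at -1.97 (-2.53 to -1.44) and -2.20 (-2.77 to -1.64), and *Pfkfb3*, at -1.31 (-1.62 to -1.01) and -1.63 (-2.11 to -1.15). *Got2* was highest there, at 0.96 (0.72 to 1.21) and 0.87 (0.61 to 1.15), followed by *Eno1b* and *Gpd1l* in WT, at 0.42 (0.28 to 0.56) and 0.22 (-0.32 to 0.77), and by *Got1* and *Slc25a1* in cKO, at 0.63 (0.08 to 1.21) and 0.51 (0.04 to 1.02).

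In DN-like cells *Slc25a1* was highest, at 1.27 (0.51 to 1.97) in WT and 1.45 (0.75 to 2.13) in cKO, followed by *Got1* and *Gpd1l* in WT, at 0.30 (-0.90 to 1.32) and 0.26 (-1.13 to 1.41), and by *Got2* in cKO, at 0.68 (0.21 to 1.13). Lowest were *Pgam5*, at -1.25 (-2.11 to -0.51) in WT and -1.21 (-1.87 to -0.61) in cKO, *Pdk1*, at -1.11 (-1.51 to -0.73) and -1.25 (-1.81 to -0.74), *Gpd2* in WT, at -1.13 (-2.16 to -0.26), and *Pdhx* in cKO, at -1.71 (-2.88 to -0.73). Early cells had *Pdk2* at -1.44 (-2.48 to -0.55) in WT and -1.67 (-3.04 to -0.55) in cKO, *Pdk1* at -0.95 (-1.21 to -0.70) and -1.53 (-2.09 to -1.02), *Idh1*, the cytosolic isocitrate dehydrogenase, at -1.41 (-2.78 to -0.30) in WT and *Bpgm* at -0.88 (-1.43 to -0.36) in cKO. Highest in early cells were *Eno1b*, *Me2* and *Slc25a1* in WT, at 1.08 (0.89 to 1.27), 0.72 (0.40 to 1.04) and 0.68 (0.03 to 1.29), and *Slc25a1*, *Pdp2* and *Pfkfb3* in cKO, at 0.99 (0.26 to 1.69), 0.59 (-0.27 to 1.40) and 0.53 (-0.09 to 1.12). In mature SP-like cells *Eno1b* was highest, at 1.54 (1.40 to 1.68) and 0.82 (0.62 to 1.02), then *Got1*, at 1.06 (0.54 to 1.58) and 0.79 (-0.10 to 1.65), then *Me2* in WT, at 0.35 (0.08 to 0.62), and *Slc25a11* in cKO, at 0.29 (-0.03 to 0.61). Lowest were *Idh1*, *Pdk2* and *Pdhx* in WT, at -2.01 (-3.14 to -1.05), -1.84 (-2.65 to -1.12) and -1.44 (-1.92 to -0.99), and *Pfkfb3*, *Aco1* and *Bpgm* in cKO, at -1.83 (-3.20 to -0.72), -1.38 (-2.90 to -0.15) and -1.35 (-1.997 to -0.75).

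In cycling-like against DP-like cells, 9 of 10 measured hypoxia response genes were lower and none higher in WT and 8 of 10 lower and none higher in cKO, with medians of -1.29 and -1.24, against 52.9% of all genes lower in WT and 55.8% in cKO (medians -0.58 and -0.64). Any link of these genes to the glycolysis genes was not tested. Pentose phosphate genes and regulators were split there, with 3 of 15 higher and 5 lower in WT and 3 and 6 in cKO, against 17.3 and 52.9% of all genes in WT and 15.2 and 55.8% in cKO.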

How the data were processed

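The authors processed the reads of the 2 cDNA libraries with dnbc4tools (version 2.1.3 in the series text, 3.0 in the matrix header) against mm10 and deposited raw counts of UMIs per gene and cell, with no normalization and a lower limit of 1000 UMIs per cell. Total counts were 18355050 (WT) and 18056277 (cKO). Of 21926 gene identifiers, 21456 (97.86%) matched GENCODE M21, from which spans were taken. All members were found by symbol.

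Cells with at least 50 genes and at most 10% mitochondrial UMIs were kept (6012 WT and 4335 cKO), and genes found in at least 3 cells. The 2000 most variable genes, without the members, other genes of the pathways, stress genes and *Eif4g2*, gave 30 principal components, 20 neighbours and Leiden clusters at resolution 1.0 (seed 1) with scanpy 1.11.5, leidenalg 0.10.2, scipy 1.17.1, numpy 2.4.6 and python 3.11.15. Clusters were named from at least 3 markers, with leading genes taken as the top 10 by fold with a pseudocount of 10 CPM among clusters of at least 20 cells. Class names are rebuilt, so shares of cells may differ from the study's. Cells with at least 3 UMIs of 42 cycle genes after thinning to 1000 UMIs counted as cycling.

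UMIs were summed per class and library. Levels carry exact Poisson intervals, ratios exact conditional binomial intervals and shares exact Clopper-Pearson intervals, each at 95%, all covering counting error only. No test was run, since each genotype had 1 library. Members and lists were chosen with earlier results of these data known. By a fixed rule, the 4 highest and 4 lowest ratios of measured members in each comparison, the isozyme groups and the 3 highest and 3 lowest of the other genes of the pathways between genotypes and between stages were named. Some genes that this rule names are not reported here. The ratio step was tested on simulated counts for cKO over WT non-cycling DP-like cells, where 200 of 8771 genes were changed: 99.5% of them were recovered, 3.07% of unchanged genes passed the limit and 96.1% of intervals held the true value. Alternatives were other resolutions, each library clustered by itself, stricter cells, other scalings, other limits and centring by gene span. RefSeq promoters (GRCm38.p6) were matched by symbol for 35 members.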

Additional observations from a re-analysis of the deposited data

How the results depend on the processing

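With the resolution at 1.6 no member ratio moved by more than its counting interval. A reversal was counted only for ratios that passed the limit in the results above. None of these reversed at either resolution, with each library clustered by itself, with another limit on cycle UMIs or as a mean over cells. Sign changes of smaller ratios were not counted. The early glycolysis median between genotypes turned negative at resolution 0.6 and with each library clustered by itself. With *Eno1b* added to *Eno1*, the *Eno3* share was 5.26% in DN-like, 1.94% in cycling-like, 1.28% in DP-like, 9.36% in early and 2.59% in mature WT cells, and 1.03, 11.4 and 2.37% in cycling-like, early and mature cKO cells. At resolution 0.6 early WT cells had sums of 41.5 (glycolysis) and 16.1 (TCA) per 10000, mature WT cells 27.1 and 13.7 with an *Ldhb* share of 34.7%, and mature cKO cells a glycolysis sum of 33.5 and an *Ldhb* share of 35.6%. With each library clustered by itself, glycolysis sums were 41.1 in cycling-like and 26.9 in mature WT cells and 44.4 in early and 33.4 in mature cKO cells, where the *Ldhb* share was 33.8% and the TCA sum 14.5. These settings assign cells anew, which by construction changes who is in a class.

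Among cells of 1000 to 10000 UMIs with at most 3% mitochondrial UMIs, 4 members passed the limit between genotypes in cycling-like cells, the *Ldhb* share was 53.6% in WT and 48.8% in cKO DN-like cells and 59.4 and 51.6% in cycling-like cells, glycolysis sums were 28.6, 38.7 and 26.8 in DN-like, cycling-like and mature WT cells and 34.7, 47.8, 45.1 and 33.3 in DN-like, cycling-like, early and mature cKO cells, and TCA sums were 16.1 in early and 13.7 in mature WT and 15.2 in DN-like cKO cells. Of all genes, 4.52% were then higher and 34.8% lower in cKO over WT cycling-like cells. *Suclg2* then reversed to -0.18 in cycling-like over DP-like WT cells. The cause was not tested.

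Scaled to the median gene, 7 members passed the limit between genotypes in DN-like and 11 in mature cells, 25 in DN-like over DP-like WT cells and 20 in mature over DP-like cKO cells, and in cycling-like over DP-like cells *Slc2a1* reversed to 0.035 in WT and *Pfkp* and *Pdhb* to 0.0055 and 0.12 in cKO. Centred by span, 11 members passed the limit in mature cells, and *Hk1* reversed to 0.14 in DN-like and 0.32 and *Slc2a3* to 0.024 in cycling-like cells. Measured from 20 UMIs, 7 members passed it between genotypes in DN-like cells. From 200 UMIs, with fewer genes measured, none passed in DN-like and 6 in early cells, and 9 in DN-like and 7 in mature over DP-like cKO cells. At a limit of 1, the counts between genotypes were 1, 0, 1, 3 and 1, and against DP-like cells 8, 8, 6 and 4 in WT and 6, 7, 3 and 3 in cKO. Shares of all genes from 20 or 200 UMIs and at a limit of 1 are not given here. These counts are therefore not read as a result about the members.

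With cycling called from 2 cycle UMIs, 2 members differed between cycling and non-cycling DP-like cells in WT and 6 in cKO. Called from 5, with fewer cycling cells, 3 differed in DN-like, 24 in DP-like and 16 in mature WT cells and 20 in DP-like cKO cells, the *Ldhb* share of cycling-like cells was 44.5% in WT and 36.8% in cKO, and their glycolysis sum was 50.9 in cKO. In cells of 2000 to 10000 UMIs 1 member differed in cKO DN-like cells. The counts of genes between cycling and non-cycling DP-like cells thus depended on the limit on cycle UMIs. Shares of all genes under these settings are not given here, so the counts are not read as a result about the members. Leaving out a library was not possible, because each genotype had 1.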

Other observations

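Outside the 5 classes compared, NKT or gamma delta T-like cells (55 WT and 15 cKO cells) had glycolysis sums of 26.7 and 35.5 and TCA sums of 11.4 and 11.3 per 10000 UMIs. Antigen-presenting-like cells (62 and 25 cells) had 30.2 and 37.5 for glycolysis and 13.6 and 15.3 for the TCA cycle, with *Ldhb* at 284 CPM in WT and 788 CPM in cKO and *Ldhb* shares of 55.2 and 75.4%. WT erythroid-like cells (44 cells) had a glycolysis sum of 2.73 per 10000.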
